A study of Mus musculus with 2 samples.

Results

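The variable (V) segments of the alpha-beta T cell receptor were followed in heart T cells of mice after myocardial infarction (MI). All rows whose symbol begins with Trav or Trbv and a digit were taken: 165 of the 55357 rows of each count table, of which 35 were Trbv segments on chromosome 6 and 130 were Trav segments on chromosome 14. Both groups were WT mice sampled 7 days after MI. One library came from mice injected with anti-IgG, the control antibody, and one from mice injected with anti-PD1, an antibody against the inhibitory receptor PD-1. The submitters' design text calls the cells sorted, whereas the protocols in the labels record digestion of heart tissue, lysis of red cells and removal of dead cells but no sort. The labels give no number of mice, strain, age or injection schedule, so whether hearts were pooled is not known here.

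A T cell makes the beta chain of its receptor by joining 1 Trbv segment to diversity and joining segments, and the alpha chain by joining 1 Trav segment to a joining segment. Allelic exclusion usually leaves a cell with a single productive beta chain, while both alpha alleles can be rearranged. The chains of CD4 T cells meet peptides on MHC class II and those of CD8 T cells meet peptides on MHC class I. Invariant natural killer T (iNKT) cells and mucosal-associated invariant T (MAIT) cells carry nearly fixed alpha chains that use Trav11 and Trav1. The delta locus lies inside the alpha locus, and segments with "dv" in their symbol can be joined into either chain.

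A cell was called Cd3-positive when it held at least 1 UMI of Cd3d, Cd3e or Cd3g, which encode the signalling chains of the receptor. A UMI, or unique molecular identifier, marks 1 captured transcript. In the anti-IgG library 3992 of 4380 barcodes were Cd3-positive and passed quality limits, and in the anti-PD1 library 5352 of 6026. Their median depth was 4078.5 and 3864 UMIs and their median number of genes 1683 and 1569. UMIs of at least 2 B cell markers stood in 1.5% and 3.44% of these cells, of at least 2 myeloid markers in 3.41% and 3.06%, and of at least 2 endothelial, fibroblast or cardiomyocyte markers in between 0.112% and 1.25%. No doublets were removed, and 47 barcodes occur in both libraries. With 1 library a treatment, no p-value is given, and each 95% interval covers counting error only. For UMIs these intervals are too narrow, since the UMIs of 1 segment lie in few cells. Treatment and library cannot be told apart.

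V segments resemble each other to different degrees, which sets what a short read can assign. The sequences shown here are 120 bases at the 3' end of the V exon, next to the junction, from GENCODE transcripts on build GRCm38. They cover the segments on which the CD4 and CD8 comparison, the iNKT cells and the ambiguous counts turn. Capitals mark bases that differ within each set. Trbv12-1 (chr6:41113948-41114067, plus strand) and Trbv12-2 (chr6:41119245-41119364, plus strand) differed at 9 of 120 bases.
Trbv12-1: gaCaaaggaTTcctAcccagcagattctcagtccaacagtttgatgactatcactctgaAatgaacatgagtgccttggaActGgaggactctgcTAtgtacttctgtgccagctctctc
Trbv12-2: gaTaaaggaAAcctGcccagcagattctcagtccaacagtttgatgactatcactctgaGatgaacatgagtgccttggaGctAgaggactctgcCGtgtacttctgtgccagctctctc
The 3 Trbv13 segments, which pair with the invariant alpha chains or neighbour Trbv12, were less alike. Trbv13-1 (chr6:41116349-41116468) was 84.2% identical to Trbv13-2 (chr6:41121713-41121832) and 81.7% identical to Trbv13-3 (chr6:41130466-41130585), and the latter pair was 90.8% identical, all on the plus strand.
Trbv13-1: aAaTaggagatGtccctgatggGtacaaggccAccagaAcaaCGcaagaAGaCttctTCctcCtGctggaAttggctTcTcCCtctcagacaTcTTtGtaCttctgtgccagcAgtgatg
Trbv13-2: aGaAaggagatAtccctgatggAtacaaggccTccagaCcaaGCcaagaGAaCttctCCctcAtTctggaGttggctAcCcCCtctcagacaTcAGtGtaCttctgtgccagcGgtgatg
Trbv13-3: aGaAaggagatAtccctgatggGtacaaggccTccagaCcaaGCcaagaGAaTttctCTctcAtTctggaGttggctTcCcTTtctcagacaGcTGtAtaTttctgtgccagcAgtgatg

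The alpha locus holds near-copies. Trav11, the iNKT segment (chr14:53519739-53519858), and Trav11d (chr14:52824793-52824912) were identical over these bases, and Trav11n (chr14:53135558-53135677) differed from both at 2, all on the plus strand.
Trav11: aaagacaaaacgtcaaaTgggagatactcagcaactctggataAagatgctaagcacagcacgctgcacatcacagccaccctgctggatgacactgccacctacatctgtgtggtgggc
Trav11d: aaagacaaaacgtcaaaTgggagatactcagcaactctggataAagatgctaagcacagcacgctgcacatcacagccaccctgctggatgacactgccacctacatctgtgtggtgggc
Trav11n: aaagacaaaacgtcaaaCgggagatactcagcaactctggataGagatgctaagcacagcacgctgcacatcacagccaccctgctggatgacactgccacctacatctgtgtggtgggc
Trav9-1 (chr14:53488448-53488567), a segment with a low CD8 over CD4 ratio in both libraries, differed from Trav9d-1 (chr14:52792658-52792777) at 1 base, both on the plus strand.
Trav9-1: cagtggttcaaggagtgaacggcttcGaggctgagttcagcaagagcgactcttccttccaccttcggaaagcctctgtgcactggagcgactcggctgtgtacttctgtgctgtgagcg
Trav9d-1: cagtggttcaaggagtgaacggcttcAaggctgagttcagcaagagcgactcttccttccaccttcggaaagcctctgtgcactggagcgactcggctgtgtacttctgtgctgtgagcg

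Every Trbv segment was countable by sequence: in each of the 35, all 90-base windows of its transcript were found in no other V transcript. All 22 Trbv segments annotated as genes were detected, 21 of them with at least 100 UMIs over both libraries. Of the 13 annotated as pseudogenes, 10 had 0 UMIs in both libraries, which allows up to 3 counts in each, and 1, Trbv24, had 214 UMIs in the anti-IgG and 187 in the anti-PD1 library. Together the Trbv segments held 27663 and 30746 UMIs.

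The Trav segments held 11002 and 11746 UMIs, and 41 of the 130 had 0 in both libraries. The 40 segments with no unique window held 8 UMIs in all, and 33 of them held 0. The 24 segments whose windows were all unique held 22.4% of the Trav UMIs, the 44 with at least 50% but not all windows unique held 66.4%, and the 22 others, with some but under 50%, held 11.1%. Zero counts of a segment without unique windows therefore give no level for it. Of 20 annotated Trav pseudogenes 12 were at 0, while Trav8-2 had 170 and 127 UMIs. These shares of unique windows were computed after the counts had been seen.

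**Figure D1:**
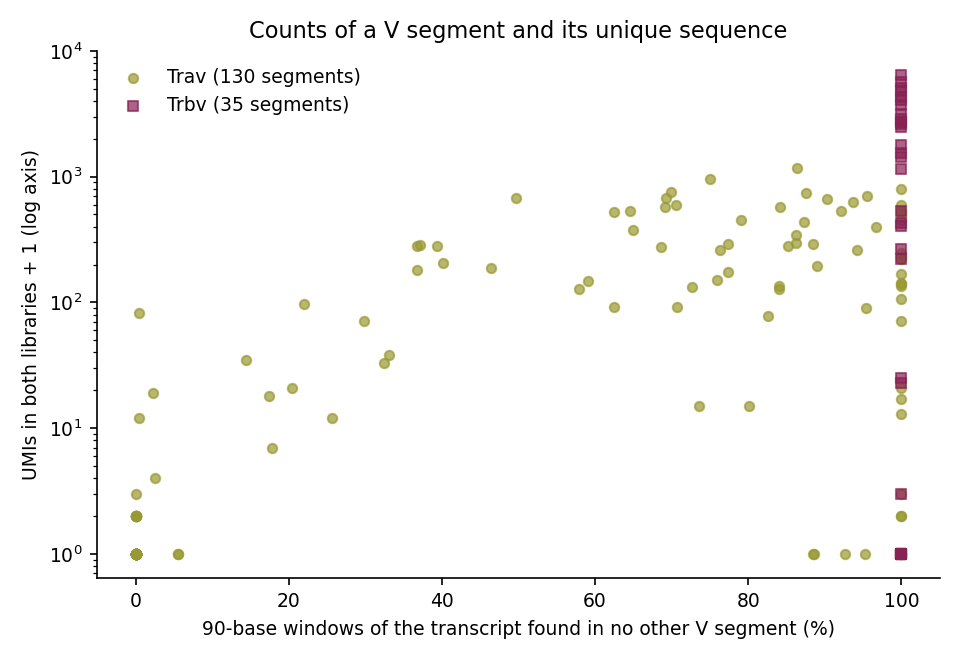
Summed UMIs of both libraries plus 1 (log axis) against the percent of 90-base windows of the transcript found in no other V segment, with 1 point for each of 130 Trav (circles) and 35 Trbv (squares) segments. All Trbv points lie at 100%, and the 40 Trav segments at 0% hold 8 UMIs in all.

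A Trbv UMI was found in 87.1% (95% interval 86.0 to 88.1) of Cd3-positive cells of the anti-IgG library and in 81.9% of those of the anti-PD1 library. For Trav the shares were 67.9% and 60.1%, and for at least 1 of the loci 92% and 87.0%. The anti-PD1 library was lower for each. After each cell had been thinned to 1000 UMIs, which left out 34 and 52 shallower cells, the shares were 63.9% and 58.9% for Trbv and 35.9% and 31.1% for Trav. As background, B cells without a Cd3 UMI held a Trbv UMI in 0 of 59 cells (which allows a share of up to 5.08%) and in 5.63% of 142, at median depths of 2812 and 2407.5 UMIs. Myeloid cells without a Cd3 UMI held one in 0 of 54 (up to 5.56%) and in 6 of 120, at median depths of 5394.5 and 5370.5. For Trav these shares were 0 and 0.704% in B cells and 0 and 1.67% in myeloid cells, below those of the Cd3-positive cells.

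The lower share in the anti-PD1 library went with a different mix of cells, and within gates it depended on depth. The CD4 gate (at least 1 Cd4 UMI, none of Cd8a or Cd8b1) held 1481 and 1412 cells, and Trbv was seen in 92.6% and 91.3% of them. The CD8 gate (at least 1 Cd8a or Cd8b1 UMI, none of Cd4) held 942 and 1392 cells, with Trbv in 94.2% and 92.5%. The Foxp3 gate (a UMI of Foxp3, the factor of regulatory T cells, and none of Cd8a or Cd8b1) held 224 and 290 cells, with Trbv in 90.6% and 90.3%. As deposited, the Trbv shares of the libraries differed within these 3 gates by under 2 percentage points, all above 90%. After thinning, with the gates set again, the anti-IgG share was 70.9% (67.2 to 74.3) and the anti-PD1 share 64.5% in the CD4 gate. In the CD8 gate they were 68.9% (65.5 to 72.0) and 67.1%, and in the Foxp3 gate 65.2% (56.5 to 73.2) and 60.1%. The anti-PD1 share was lower in each of the gates, but outside the anti-IgG interval in the CD4 gate only. The gates set again held fewer cells: 652, 806 and 135 in the anti-IgG library. Cells without a UMI of Cd4, Cd8a, Cd8b1 or Foxp3 numbered 1185 and 2103, and there Trbv was seen in 71.8% and 66.3%. Trav was also lower in the anti-PD1 library in the CD4 gate (75.2% and 72.1%), the CD8 gate (71.9% and 66.9%) and cells of neither gate (51.3% and 43.8%). The Foxp3 gate went the other way, with Trav in 70.5% and 71.7% as deposited and 41.5% and 45.2% after thinning. The part of the mix of cells in the lower share was not tested.

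Over all Cd3-positive cells, V segments were lower in the anti-PD1 library together with the other chains of the alpha-beta receptor. Trbv stood at 1333 UMIs per 1000000 UMIs of the cells in the anti-IgG and 1170 in the anti-PD1 library (ratio 0.878, 95% interval 0.864 to 0.892), and Trav at 530 and 447 (0.843). The beta constant regions Trbc1 and Trbc2 together stood at 489 and 385 on this scale (0.788) and the alpha constant region Trac at 259 and 203 (0.786). Cd3d (ratio 1.00), Cd3e (0.999) and Cd3g (0.955) were near 1, whereas the delta constant region Trdc stood at 52.0 and 68.1 (1.31) and the gamma constant region Trgc1 had a ratio of 1.33. Of the other genes of a list of 20 chains, signalling and recombination genes, Themis, a thymocyte signalling protein, was at 141 and 93.5 on this scale (0.662), and Rag1, a subunit of the V(D)J recombinase, had 0 UMIs in the anti-IgG library, which allows up to 3 counts, and 44 in the anti-PD1 library, where they lay in 0.206% of cells. In both libraries V UMIs outnumbered constant-region UMIs, while the labels name a kit for the 3' end, where the constant region lies. Which end was sequenced was not tested.

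To compare usage, a cell was assigned to a V gene when all its UMIs of that locus came from 1 gene. This gave a Trbv gene to 2112 anti-IgG and 2820 anti-PD1 cells. Trbv13-2 was the most used, in 11.4% (10.0 to 12.8) and 11.0% (9.90 to 12.2) of assigned cells, followed by Trbv3 with 10.7% and 9.33% and Trbv19 with 8.71% and 7.06%. Trbv1 (7.06% and 6.84%), Trbv13-1 (5.59% and 6.42%), Trbv31 (6.72% and 5.57%), Trbv16 (5.87% and 5.75%) and Trbv20 (5.92% and 5.57%) made up the rest of the leading 8. The order of these last 5 differed between the libraries by amounts within their intervals.

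The libraries used nearly the same Trbv repertoire. Among Trbv genes with at least 50 assigned cells, Trbv13-3 alone had shares more than 1.5-fold apart: 3.50% (2.76 to 4.38) in the anti-IgG and 5.39% (4.59 to 6.29) in the anti-PD1 library (ratio 1.54, 1.16 to 2.06). Trbv26 had 3.69% and 5.14% (1.39, 1.05 to 1.86). Trbv19 was the reverse, with a ratio of 0.810 (0.660 to 0.995). For Trbv13-3 the difference lay partly in the CD8 gate, with 3.70% against 6.54%, and Trbv26 also differed there, with 2.14% against 4.81%. Trbv13-3 no longer passed 1.5-fold in shares of UMIs, after thinning, with at least 2 Cd3 UMIs or without cells holding markers of other types. Both genes were picked out after their values had been seen. Shares of assigned cells exist for V genes only, so no background of all genes stands beside this comparison.

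Trav usage was spread over many more genes, with 1561 and 2017 assigned cells. Trav13-1 led with 4.36% (3.40 to 5.49) and 4.16% (3.34 to 5.13). Trav9-1 had 3.52% and 3.12%, Trav6-7-dv9 2.63% and 3.67%, Trav7-4 2.56% and 3.57%, Trav7-5 2.95% and 3.02%, Trav10 3.46% and 2.63%, Trav5-4 2.95% and 2.97%, and Trav12-2 2.56% and 3.17%. No single gene stood out from the next beyond its interval. Summed by family, Trav7 (13.1% and 13.4%), Trav13 (12.8% and 13.1%), Trav14 (11.2% and 10.1%), Trav6 (11.0% and 11.0%) and Trav9 (10.4% and 8.10%) led in both libraries.

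Trav genes more than 1.5-fold apart between the libraries, among those with at least 50 assigned cells, were 5. How many Trav genes met that limit is not given here, and shares of assigned cells exist for V genes only. This count therefore has no background of all genes beside it. Trav21-dv12 had 1.22% and 2.48% (2.04, 1.18 to 3.66), Trav4-4-dv10 1.73% and 3.17% (1.83, 1.15 to 2.99) and Trav12-1 1.09% and 1.93% (1.78, 0.981 to 3.35). Trav6n-6 had 2.18% and 1.44% (0.660, 0.388 to 1.12) and Trav14n-3 2.5% and 1.59% (0.635, 0.385 to 1.04). The intervals of the last 3 ratios include 1. Trav21-dv12 and Trav4-4-dv10 can also be joined into delta chains, and cells with a Trdc UMI were not left out of the assignment. Trdc was seen in 9.67% of Cd3-positive cells of the anti-IgG and 13.6% of those of the anti-PD1 library. The part of these cells in the 2 ratios was not tested. For Trav4-4-dv10 the direction turned with the measure: it held 4.64% of Trav UMIs in the anti-IgG and 3.82% in the anti-PD1 library, and was seen in 3.11% and 2.80% of cells. Trav21-dv12 held 1.77% and 2.45% of Trav UMIs but was seen in 1.85% and 1.79% of cells.

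Counted in UMIs per total UMIs, 78 V segments had at least 100 UMIs over both libraries. Of these 1 was more than 1.5-fold higher in the anti-PD1 library (1.28%, against 5.13% of all 11422 genes counted) and 13 were lower (16.7%, against 9.67%). The median log2 ratio was -0.22 over the segments and -0.12 over all genes. The 1 higher was Trav13-2, with 153 and 297 UMIs (1.53), but it was seen in 1.58% and 1.49% of cells, so more UMIs stood in about as many cells. Trav6-4 was lowest, with 87 and 46 UMIs (0.418) in 0.927% and 0.448% of cells. Trav7d-3 had 110 and 69 UMIs (0.495), Trav6n-6 174 and 117 (0.531), Trav13n-1 170 and 117 (0.544) and Trav7n-4 102 and 71 (0.550). Of the 13 lower, 2 were Trbv genes, Trbv23 and Trbv30, of 22 counted.

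Trbv usage differed between the CD4 and CD8 gates, and for most Trbv genes in the same direction in both libraries. Trbv12-1, Trbv12-2, Trbv14, Trbv17 and Trbv29 were used more in CD8 cells, and Trbv3 and Trbv31 more in CD4 cells. Trbv12-1 was assigned to 1.5% (0.799 to 2.54) of CD4 and 8.19% (5.96 to 10.9) of CD8 cells in the anti-IgG library, and to 1.69% (0.930 to 2.83) and 6.79% (5.16 to 8.75) in the anti-PD1 library. Its near neighbour Trbv12-2, whose sequence is given above, had 1.96% and 7.41%, and 1.69% and 5.68%. Trbv29 had 2.30% and 8.19%, and 2.66% and 7.28%. For these 3 genes the CD4 and CD8 intervals did not overlap in either library.

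Trbv14 had 1.04% of CD4 and 3.70% of CD8 cells in the anti-IgG library, and 1.33% and 3.09% in the anti-PD1 library. Trbv17 had 0.575% and 2.53%, and 1.57% and 3.46%. In the other direction, Trbv3 had 14.0% (11.8 to 16.5) of CD4 and 7.21% (5.13 to 9.80) of CD8 cells, and then 12.5% (10.3 to 14.9) and 6.54% (4.94 to 8.47). Trbv31, the only gene of the locus that lies downstream of the constant regions and in the opposite orientation, had 7.71% and 3.12%, and 8.23% and 2.22%. Both were higher in CD4 cells of both libraries, with intervals that did not overlap.

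**Figure D2:**
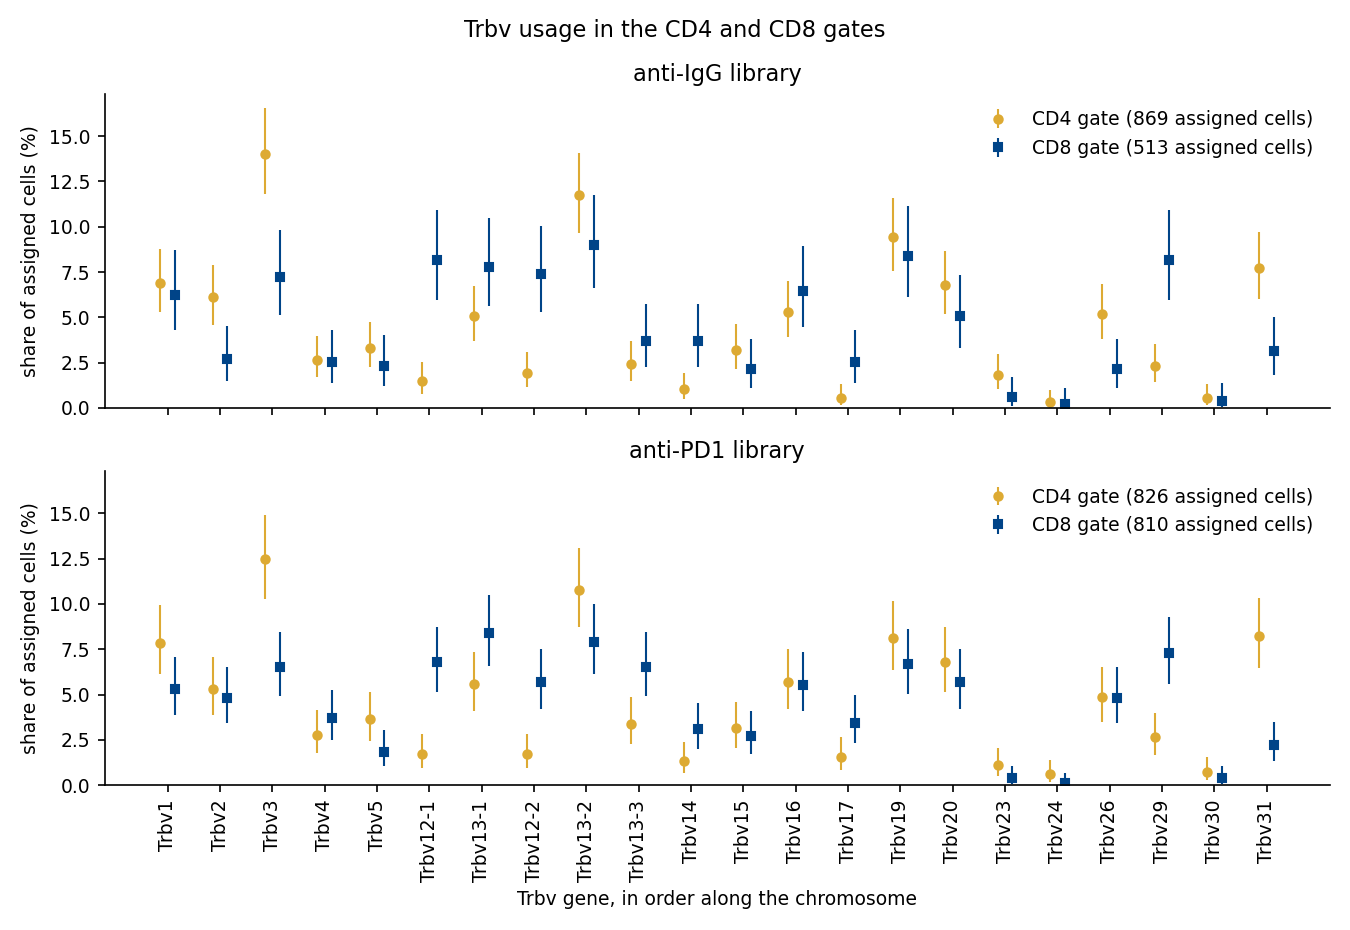
Percent of assigned cells that use each Trbv gene, in order along the chromosome, in the CD4 gate (circles) and the CD8 gate (squares) of the anti-IgG (top) and anti-PD1 (bottom) library, with exact 95% intervals for counting error as lines. Trbv12-1, Trbv12-2 and Trbv29 lie at 5.68% or more in the CD8 gate and at 2.66% or less in the CD4 gate of both libraries, and Trbv3 and Trbv31 lie higher in the CD4 gate.

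In UMIs per total UMIs of the gate, 68 V segments were counted in this comparison. More than 1.5-fold higher in CD8 cells of both libraries were 11 (16.2%, against 2.08% of 10173 genes), 6 of 22 Trbv and 5 of 46 Trav. Lower in both were 17 (25%, against 4.74%), 4 of 22 Trbv and 13 of 46 Trav. The median log2 ratio of the segments was -0.37 in the anti-IgG and -0.36 in the anti-PD1 library, against -0.10 and -0.06 over all genes. After thinning, when fewer UMIs and cells remained, 5 were higher and 2 lower. The number of segments counted and the share of all genes called at that depth are not given here.

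Trbv12-1 had 386 UMIs in CD8 and 104 in CD4 cells of the anti-IgG library (ratio 4.96, 3.99 to 6.22) and 417 and 147 in the anti-PD1 library (2.41, 2.00 to 2.93). For Trbv12-2 the ratios were 2.83 and 2.05, for Trbv14 2.55 and 2.57, for Trbv17 2.83 and 2.48, for Trbv29 2.57 and 1.96, and for Trbv13-3 1.71 and 1.56. These are the 6 Trbv genes called higher. The share of cells with a UMI moved with them: Trbv12-1 was seen in 3.04% of CD4 and 9.77% of CD8 cells, and then in 2.76% and 7.76%. Trbv31 (0.413 and 0.358), Trbv23 (0.356 and 0.391), Trbv26 (0.391 and 0.573) and Trbv1 (0.599 and 0.572) were the 4 called lower. Trbv3, used more in CD4 cells by assigned share, was not past 1.5-fold in both libraries by UMIs. In assigned cells the differences of Trbv26 and Trbv1 were smaller: Trbv26 took 5.18% of CD4 and 2.14% of CD8 cells in the anti-IgG library but 4.84% and 4.81% in the anti-PD1 library, and Trbv1 took 6.90% and 6.24%, and 7.87% and 5.31%.

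Among Trav genes, Trav8d-2 and Trav19 had the highest ratios. Trav8d-2 had 99 UMIs in CD8 and 36 in CD4 cells (3.68, 2.49 to 5.54), and then 101 and 20 (4.30, 2.64 to 7.33), but these lay in 20 and 16, and 15 and 6, cells. Trav19, all of whose windows are unique, had 118 and 55 UMIs (2.87, 2.07 to 4.02) and 162 and 39 (3.53, 2.48 to 5.15). It was assigned to 0.651% of CD4 and 5.26% of CD8 cells, and to 1.40% and 4.16%. Trav16n, Trav16 and Trav12-1 were the others called higher, and as a family Trav16 made up 4.06% of CD4 and 9.72% of CD8 cells, and then 3.75% and 8.33%.

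On the lower side Trav9-1 had 39 UMIs in CD8 and 249 in CD4 cells (0.209, 0.145 to 0.294), and 43 and 164 (0.223, 0.156 to 0.314). It was seen in 5.94% of CD4 and 2.23% of CD8 cells, and then in 4.53% and 1.72%. Its assigned shares were 5.37% and 1.91% in the anti-IgG library but 2.95% and 2.25% in the anti-PD1 library, where the intervals overlap, so the size of the difference depended on the measure. Trav21-dv12 (0.327 and 0.335), Trav4-4-dv10 (0.183 and 0.406) and Trav14n-3 (0.482 and 0.434) followed. For Trav14n-3 the anti-IgG ratio was 0.708 after thinning and 0.706 with gates at 2 UMIs, short of 1.5-fold.

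All 28 segments called in this comparison also differed the same way in share of cells in both libraries. These shares come from the same UMIs, cells and gates by which the 28 were picked, so they are no independent repeat. Across the 22 Trbv genes the log2 ratios of the libraries had Pearson's r 0.853 and Spearman's rho 0.790, and 19 had the same sign. Across the 46 Trav genes r was 0.508 and rho 0.510, and 35 had the same sign. The points within a library share its depth and its gates, and members of a locus share reads and neighbours, so these are descriptions.

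**Figure D3:**
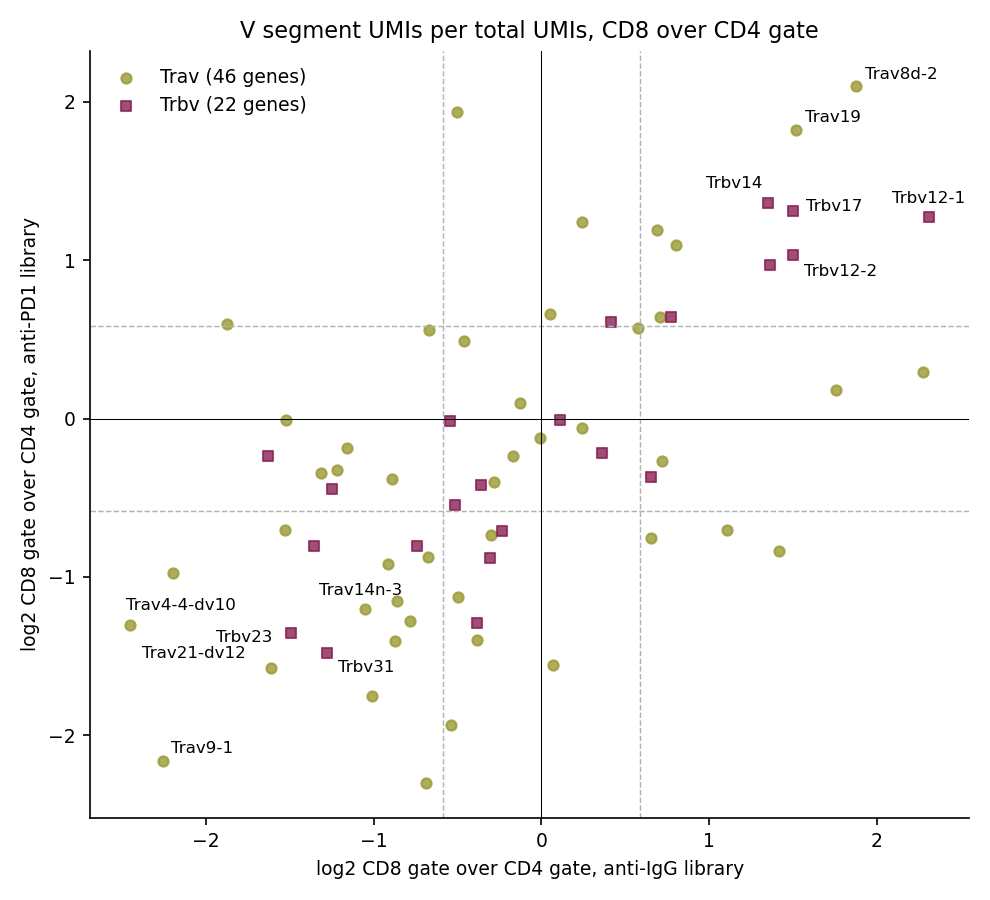
Log2 ratio of UMIs per total UMIs in the CD8 over the CD4 gate, in the anti-IgG (x axis) and anti-PD1 (y axis) library, for 46 Trav (circles) and 22 Trbv (squares) genes; dashed lines mark 1.5-fold. The 11 genes past 1.5-fold in both libraries at upper right include Trbv12-1, Trbv14, Trbv17 and Trav19, and the 17 at lower left include Trav9-1 and Trbv31.

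No such repeat was seen for regulatory T cells. Cells of the Foxp3 gate were compared with Foxp3-negative CD4 cells over 51 V segments. In both libraries 0 were more than 1.5-fold higher (against 8.46% of 9015 genes) and 7 were lower (13.7%, against 4.04%), 3 of 21 Trbv and 4 of 30 Trav. The segments lay lower as a set: their median log2 ratio was -0.29 in the anti-IgG and -0.19 in the anti-PD1 library. Over all genes it was 0.09 and 0.08. At the limit of 50 UMIs 1 was higher, for which no share of all genes is given here. The log2 ratios of the libraries had r -0.08 and rho -0.10 over the 51, with the same sign in 26. Of the 7 called lower, 5 were also lower in share of cells, drawn from the same UMIs, in both libraries.

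Trbv13-1 had 45 UMIs in Foxp3 and 506 in Foxp3-negative cells of the anti-IgG library (0.42), and 60 and 510 in the anti-PD1 library (0.37). It was seen in 4.46% (2.16 to 8.06) and 6.34% (5.10 to 7.78), and in 5.86% (3.45 to 9.22) and 7.03% (5.68 to 8.59) of cells, which overlap. Trav4-3 (4 and 16 Foxp3 UMIs), Trav7-4 (15 and 11) and Trav14-1 (13 and 12) rested on at most 9 Foxp3 cells a library. After thinning, Trbv13-1 and Trav7-4 had an anti-PD1 ratio of 1.12 and Trav14-1 one of 1.54, the opposite direction. For none of these 4 genes was a difference past 1.5-fold in both libraries detectable at that depth.

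Evenness was given as the effective number of genes, the inverse Simpson index without size bias. It is the number of equally used genes that would give the same chance of drawing 1 gene in a pair of cells. For Trbv it was 13.6 in CD4 and 16.3 in CD8 cells of the anti-IgG library, and 14.7 and 17.5 in the anti-PD1 library. CD8 cells thus used the Trbv genes more evenly in both. The largest share was 14.0% and 12.5% in CD4 cells, both Trbv3, and 8.97% (Trbv13-2) and 8.40% (Trbv13-1) in CD8 cells. The Foxp3 gate had 16.3 and 16.1 over 112 and 167 cells, and cells of neither gate 15.6 and 15.7.

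For Trav the effective number was 44.7 and 44.9 in CD4 and 43.8 and 44.7 in CD8 cells, so the gates were within 1 gene of each other in each library. The Foxp3 gate gave 59.4 and 44.2 over 93 and 116 assigned cells. Thinning turned that order, to 47.0 and 57.5, and over families the values were 10.4 and 11.2. The 59.4 lay above the 49 Trav genes seen in that gate, so at this size it cannot be read as a count of genes. Cells of neither gate had 52.6 and 48.5.

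Cells with a Pdcd1 UMI (the gene of PD-1, the target of the antibody) were read apart from those without. In the CD4 gate the effective number of Trbv genes was 13.6 with and 13.6 without Pdcd1 in the anti-IgG library, and 14.4 and 14.9 in the anti-PD1 library. In the CD8 gate it was 15.4 with and 16.3 without, over 58 and 455 cells, and 14.4 and 17.9, over 133 and 677. For Trav genes it was 31.3 with and 42.6 without in the anti-IgG, and 34.8 and 43.8 in the anti-PD1 library, over 48 and 108 cells with Pdcd1. The number was lower with Pdcd1 in these 4 contrasts, which were not tested. Shannon evenness was higher with Pdcd1 in 3 of them. For Trbv it was 0.936 with and 0.928 without in the anti-IgG library, and 0.924 and 0.933 in the anti-PD1 library. For Trav it was 0.943 and 0.929, and 0.936 and 0.927. Shannon evenness is scaled to the number of genes seen, which was lower with Pdcd1. Genes seen with and without Pdcd1 were 17 and 22, and 19 and 23, for Trbv. For Trav they were 30 and 63, and 41 and 66. Shannon evenness therefore cannot order these groups of unlike size. For Trav in the anti-IgG library the effective number of 31.3 lies above the 30 genes seen. Among CD8 cells with Pdcd1 the largest Trbv share was 13.8% (6.15 to 25.4) and 11.3% (6.45 to 17.9).

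**Figure D4:**
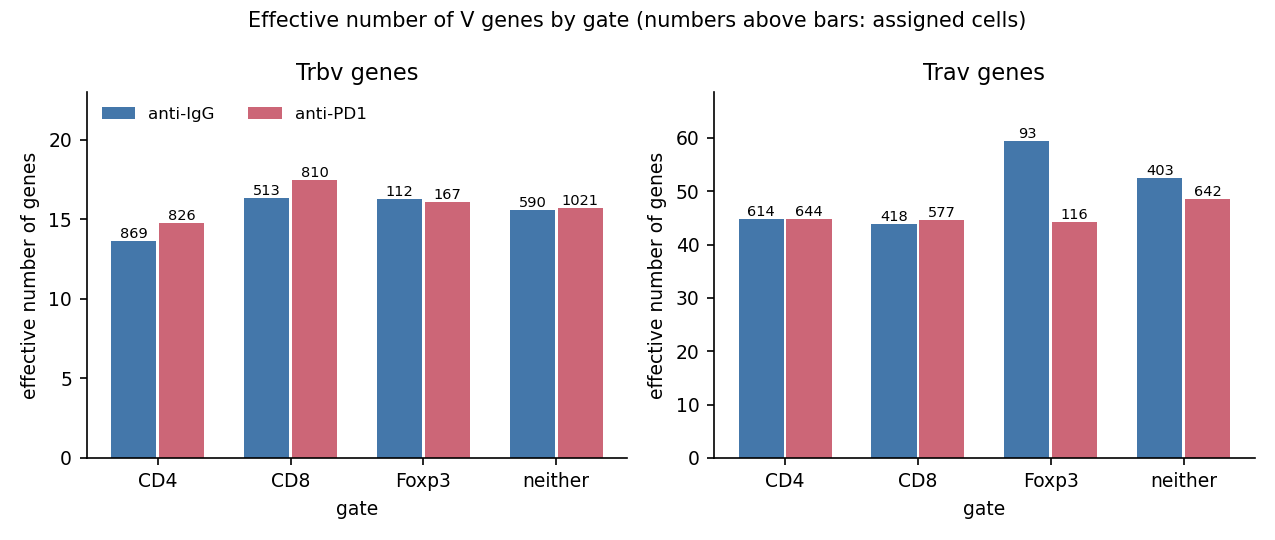
Effective number of Trbv (left) and Trav (right) genes by gate in the anti-IgG (blue) and anti-PD1 (red) library, both axes from 0, with the number of assigned cells above each bar. CD8 cells lie above CD4 cells for Trbv in both libraries, and the Foxp3 bars for Trav rest on 93 and 116 cells.

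A Trbv gene and a Trav family could both be assigned in 981 and 1270 cells. They held 266 and 280 different pairs, and the most frequent was Trav13 with Trbv20 in the anti-IgG library (21 cells, 2.14%) and Trav7 with Trbv3 in the anti-PD1 library (24 cells, 1.89%). No pair held more than 2.14% of cells. Trav13 with Trbv20 was the most frequent pair of CD8 cells in both libraries. It was found in 13 of 258 CD8 cells (5.04%, 2.71 to 8.46), where the product of the margins gives 2.44, and in 15 of 377 (3.98%, 2.24 to 6.48), where it gives 3.98 cells. In CD4 cells it was found in 3 cells of each library. Its CD8 cells used several Trav13 genes: of the 13, 6 held Trav13d-1, 5 Trav13n-1 and 2 Trav13-1, and of the 15, 6 held Trav13-1, 5 Trav13n-1, 5 Trav13n-4 and 3 Trav13d-1, some with more than 1. Trav19 with Trbv13-3 was found in 3 CD8 cells (margins 0.310) and in 8 (margins 1.03).

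The frequent pairs of CD4 cells lay nearer to their margins. There Trav7 with Trbv13-2 was found in 9 of 398 (margins 7.84) and in 7 of 423 (6.14), and Trav14 with Trbv3 in 8 (6.26) and 7 (7.40). Trav7 with Trbv3 reached 14 of the 423 CD4 cells of the anti-PD1 library (margins 8.09). In the Foxp3 gate the largest pairs held 3 of 56 and 3 of 75 cells, so that Trav3 with Trbv26, for which the margins give 0.429, rests on 3 cells. Other frequent pairs above their margins were Trav14 with Trbv15 in cells of neither gate of the anti-PD1 library (9 cells, margins 2.43), Trav12 with Trbv29 in its CD8 cells (9, margins 3.21) and Trav7 with Trbv29 in CD8 cells of the anti-IgG library (7, margins 2.67).

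The iNKT alpha chain was barely seen. Trav11 had 8 UMIs in 7 cells of the anti-IgG and 3 UMIs in 3 cells of the anti-PD1 library, and Trav11d had 0 in both. The near-copy Trav11n had 8 UMIs in 4 cells and 4 UMIs in 4 cells. Only 0.394% of the windows of Trav11 are unique, as the identical sequences above show, so these counts give no level. The few Trav11 cells had the partner known for iNKT cells: of 5 with an assigned Trbv gene in the anti-IgG library all had Trbv13-2, and of 3 in the anti-PD1 library 2 had Trbv13-2 and 1 had Trbv13-1. Zbtb16 encodes PLZF, a factor that marks innate-like T cells. It was seen in 57.1% (18.4 to 90.1) of 7 and 33.3% (0.840 to 90.6) of 3 Trav11 cells. In other cells with a Trav UMI it was seen in 4.02% and 4.80%. Other genes read for iNKT and MAIT cells went both ways. Klrb1c was seen in 42.9% and 33.3% of Trav11 cells against 2.33% and 3.69% of the others. Slamf6 was seen in 14.3% and 0% against 43.4% and 28.7%, and Il7r in 57.1% and 33.3% against 79.3% and 70.6%.

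Because the alpha segment could not be counted, the beta chain of cells with a Zbtb16 UMI and no Trdc UMI was also read, a choice made after the data had been seen. There were 138 and 237 such cells. Trbv13-2 was assigned in 17 of 54 (31.5%, 19.5 to 45.6) and 24 of 99 (24.2%, 16.2 to 33.9), against 10.6% (9.28 to 12.1) and 10.6% (9.44 to 11.9) in cells without either gene. Trbv3 was assigned in 3.70% and 5.05%, against 11.1% and 9.67%. A Trav UMI was seen in fewer Zbtb16 cells, 52.9% and 41.8%, than in the others, 72.5% and 66.8%.

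Trav1, the MAIT segment, was seen in 43 and 71 cells. Zbtb16 was found in 14.0% (5.30 to 27.9) and 22.5% (13.5 to 34) of them, against 4.02% and 4.80% of other cells with a Trav UMI. Icos, a costimulatory receptor, was seen in 44.2% and 77.5% of Trav1 cells and in 38.5% and 52.5% of the others. Not all genes read for these cells were higher. Slamf6 was seen in 39.5% and 22.5% of Trav1 cells against 43.4% and 28.7%, and Ifng in 11.6% and 9.86% against 17.3% and 14.7%. Pairs of Trav1 with Trbv19, Trbv13-2 or Trbv13-3 made up 0.306% and 1.02% of paired cells. In the anti-IgG library these were 3 cells with Trbv13-2 (margins 1.35) and 0 with Trbv19 (1.05) or Trbv13-3 (0.325). In the anti-PD1 library they were 7 with Trbv13-3 (1.19), 4 with Trbv13-2 (2.55) and 2 with Trbv19 (1.68). Pairs of the Trav11 family, which includes Trav11n, with Trbv1, Trbv13 or Trbv29 made up 0.306% and 0.0787%. These were 3 cells with Trbv13-2 (margins 0.367) and 1 with Trbv13-1 (0.0622).

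Segments that the alpha and delta loci share took a larger part of the Trav UMIs in cells with the delta constant region. Cells with a Trdc UMI numbered 386 and 727. Of their Trav UMIs, the 10 segments with "dv" in their symbol held 34.5% (30.6 to 38.6) and 37.4% (34.2 to 40.7), against 14.6% (14.0 to 15.3) and 14.8% (14.1 to 15.5) in cells without Trdc. The share was higher in Trdc cells of both libraries, although most of their Trav UMIs lay in segments without "dv". Trav13-4-dv7 held 71 and 141 of the UMIs in 15 and 29 cells, and Trav15-2-dv6-2 held 48 and 46 in 7 and 13 cells. A Trbv UMI was still found in 45.1% and 41.3% of Trdc cells and in 18.3% and 16.8% after thinning, above the unthinned share in B and myeloid cells, so UMIs of both lineages' chains met in part of these cells.

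Many cells held more than 1 V gene of a locus. At least 2 Trbv genes were seen in 34.2% and 29.2% of Cd3-positive cells as deposited and in 10.0% and 9.40% after thinning. In cells with exactly 2, numbering 959 and 1108, the lesser gene had 1 UMI in 63.2% and 65.4%. Cells with at least 2 Trbv genes were deeper, with medians of 5051 and 4774 UMIs against 3801.5 and 3667 in cells with 1. The source of the lesser gene's UMIs was not tested.

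A few neighbours along the locus shared cells well above their margins. Trbv12-2 and Trbv13-2, which are neighbours, were found together in 213 cells of the anti-IgG library where the product of their margins gives 104 (2.05 times), and in 170 where it gives 93.3 (1.82 times). Trbv16 with its neighbour Trbv17 was found in 21 cells (margins 11.0) and 22 (16.1). Over the 16 pairs of detected Trbv neighbours the counts were 491 against 394 and 469 against 447, but without Trbv12-2 with Trbv13-2 they were 278 against 290 and 299 against 354, below the margins. Of the 16 pairs 6 and 4 lay above their margins, with a median of 0.763 and 0.693 times. Summed over all other pairs the counts were below the margins, with 2670 against 3553 and 2785 against 4137. The median of these other pairs was 0.670 and 0.623 times, below that of the neighbours in both libraries. Trbv12-2 was alone in few of its cells: another Trbv gene stood beside it in 82.4% and 79.8%. The pseudogene Trbv24 had company in 91.1% and 86.8% of its cells.

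In the alpha locus the excess was spread over more pairs. Among the 56 Trav genes with at least 100 UMIs, neighbours were found together in 206 cells against 114 from the margins (1.80 times) and in 165 against 114 (1.45 times), while pairs of other Trav genes that share no window stood at 0.663 and 0.568 of the margins and pairs with shared windows at 0.354 and 0.627. Of the 54 neighbour pairs 29 lay above their margins in each library. Trav3-3 with Trav9-4, with 9634 bases between them, was found in 31 cells (margins 7.90) and 20 (5.10). The pseudogene Trav8-2 with Trav16, with 4265 bases between them, was found in 19 (margins 1.97) and 11 (1.70). Trav9d-1 and Trav9-1, which are not neighbours but differ at 1 of the 120 bases shown above, were found in 20 cells (margins 1.55) and 16 (1.09). Trav9d-1 has under 100 UMIs, so this pair is in none of the sums above. Without Trav3-3 with Trav9-4 and Trav8-2 with Trav16, the neighbours stood at 156 cells against 104 and 134 against 107. Sharing a cell was counted only after the assigned shares had been seen, and the pairs left out were chosen after seeing the data. What brings neighbours together was not tested.

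**Figure D5:**
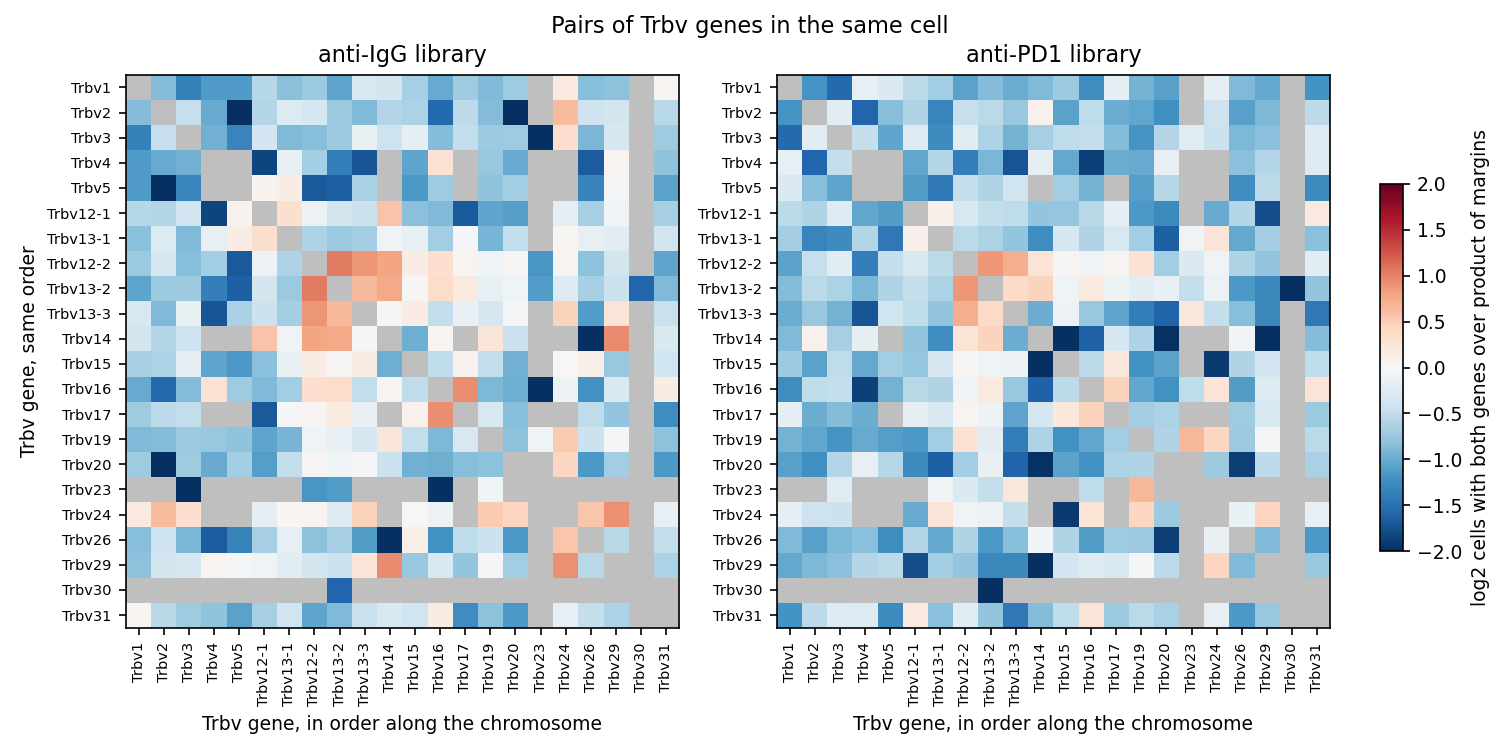
Log2 of the number of cells that hold both Trbv genes over the product of the margins, for Trbv genes in order along the chromosome, in the anti-IgG (left) and anti-PD1 (right) library; grey squares are pairs for which the margins give under 5 cells. Squares above the margins (red) gather at Trbv12-2, Trbv13-2 and their neighbours in both libraries, and most others lie below (blue).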

How the data were processed

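The authors deposited UMI counts per gene and barcode, unnormalized and limited to called cells. Cell Ranger is named as 7.1.0 per the file headers and as 7.2.0 per the submitters' processing notes, which add Seurat 4.4.0 and build mm10; no source used here names the annotation. All 165 segments were matched by gene ID to GENCODE M21 (GRCm38), where 2 carry another symbol. Cells needed at least 300 genes and 500 UMIs, with no more than 10% of UMIs mitochondrial. No doublet caller was run. Ratios are of UMIs per total UMIs, for genes with at least 100 summed UMIs, and were called past 1.5-fold; intervals are exact (Clopper-Pearson, or conditional on the sum). Gates were set again after thinning. Functions were tested on simulated data (Python 3.11.15, numpy 2.4.6, scipy 1.17.1, pandas 2.3.3, matplotlib 3.10.9).

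Named genes are the 8 Trbv and 8 Trav genes with most assigned cells, up to 6 (CD8 over CD4), 4 (Foxp3) and 5 (anti-PD1 over anti-IgG) members each way with the largest ratios, the iNKT and MAIT segments, and the 5 most frequent pairs. Members and lists were chosen with earlier results of these data known. Alternatives were other minima of Cd3 UMIs, genes, gate UMIs and summed UMIs, other assignment rules, families, thinning, and leaving out the deepest 5% of cells or cells with markers of other types.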

Additional observations from a re-analysis of the deposited data

Results flagged for a closer look

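In 3 segments, of 68 counted, the CD8 over CD4 ratio of UMIs lay above 1 in the anti-IgG and below 1 in the anti-PD1 library. Their counting intervals excluded 1 on both sides, but such intervals are too narrow for UMIs. The share of all genes that do so is not given here, so this count has no background beside it. Trav3-1 had a ratio of 2.15 in the anti-IgG and 0.614 in the anti-PD1 library, Trav13d-1 of 2.67 and 0.560, and Trav6n-6 of 1.57 and 0.592. The difference between the libraries was not tested. The UMIs behind each ratio numbered between 25 and 73 a gate. Of assigned cells, Trav3-1 took 1.30% of CD4 and 2.15% of CD8 cells in the anti-IgG and 0.932% and 1.21% in the anti-PD1 library. Trav6n-6 took 1.79% and 4.07%, and 1.24% and 1.91%, so the assigned shares of these 2 genes did not turn. Those of Trav13d-1 did, with 1.30% and 2.63%, and 1.40% and 1.04%.

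A V segment was also seen in barcodes outside the comparisons. Of barcodes without a Cd3 UMI, 13.5% in the anti-PD1 and 6.31% in the anti-IgG library held a Trav or Trbv UMI. This difference was not tested.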

How the results depend on the processing

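No paired analysis was possible because each treatment has 1 library and the labels give no replicate numbers. Depth set most limits: thinning to 1000 UMIs lowers every share of cells with a V UMI by construction.

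Of the values that answer a comparison, 208 stayed within their limits under an alternative (1.5-fold for counts, 10% for effective numbers, the interval for shares) and 65, all given here, did not. Thinning gave Trbv in 63.9% and 58.9% of cells, Trav in 35.9% and 31.1%, and both in 24.6% and 20.9%. With at least 1000 genes a cell, both were seen in 64.6% and 57.2%, and in the anti-PD1 library Trbv in 83.2% and Trav in 61.9%. Without the deepest 5% of cells Trav was seen in 58.8% and both in 53.4% of anti-PD1 cells.

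Trav genes past 1.5-fold between libraries were 2 by families, with at least 2 UMIs or thinned, and 12 in shares of UMIs. Trbv genes were 0 with at least 2 Cd3 UMIs, thinned, in shares of UMIs and without cells of other markers. Segments higher in CD8 cells were 5 thinned; lower ones were 2 thinned and 11 with gates at 2 UMIs. For Foxp3, 1 was higher at 50 UMIs, and 2 (thinned) or 3 (gates at 2 UMIs) were lower. Between libraries, 0 (thinned) or 2 (without cells of other markers) were higher, and 8 (200 UMIs) or 4 (thinned) lower. The number of segments counted and the share of all genes called are not given under these alternatives. These counts therefore cannot be set against all genes.

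Effective numbers of Trav genes fell over families to 10.6 and 11.8 (CD4), 11.6 and 11.1 (CD8), 10.4 and 11.2 (Foxp3), and 12.2 and 12.0 (neither). Thinned they were 49.7 and 39.5 (CD4), 47.0 and 57.5 (Foxp3) and, in anti-IgG cells of neither gate, 44.2. Over UMIs they were 38.1 and 39.0 (CD4), 35.0 and 34.1 (Foxp3), and 43.1 and 39.2 (neither). With at least 2 UMIs they were 39.8 (CD8, anti-PD1), 43.1 (Foxp3, anti-IgG), and 47.2 and 40.3 (neither). By the gene with over 50% of UMIs the anti-IgG Foxp3 value was 51.8, and with gates at 2 UMIs the anti-PD1 one was 49.4. For Trbv, UMIs gave 15.2 (CD8, anti-PD1), 12.5 and 13.0 (Foxp3) and 13.7 (neither, anti-IgG), and thinning 17.9 (Foxp3, anti-IgG).

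MAIT pairs were 0% in the anti-IgG library thinned and with at least 2 UMIs, and 0.251% thinned in the anti-PD1 library. iNKT pairs were 0% thinned (anti-IgG) and with at least 2 UMIs (anti-PD1). Of the ratios of named genes under an alternative, 330 kept their direction and stayed past 1.5-fold, 16 fell short and 4 turned, all after thinning, in the anti-PD1 library: Trbv13-1 (1.12), Trav7-4 (1.12) and Trav14-1 (1.54) in Foxp3 cells, and Trav13n-1 (1.00) over anti-IgG.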
